A study of Homo sapiens with 10 samples.

Results

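Poly(A) cleavage sites of 10 imprinted genes were described in IMR-32, a cell line from a human neuroblastoma, from a single list of poly(A) 3′-seq peaks. The genes were taken by name: DLK1, MEG3, IGF2, H19, CDKN1C, PEG3, PEG10, MEST, NDN and SNRPN. A peak was counted for a gene when its summit lay in the GENCODE 44 gene body or up to 600 bp past the 3′ end. This gave 45 of the 178392 peaks on chromosomes 1 to 22, X and Y, and 10 of 38899 protein-coding and lncRNA genes. Of the 10 genes, 9 held at least 1 peak and NDN held none.

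The libraries came from cells that expressed a pLKO.1 shRNA, delivered by lentivirus made in HEK293T cells and followed by puromycin selection. CDK12, a kinase that phosphorylates RNA polymerase II during elongation, was targeted by the hairpins sh22 and sh98, and its paralog CDK13 by sh701 and sh704, while shGFP served as the control. Each hairpin and the control gave 2 libraries, so that there were 4 for CDK12, 4 for CDK13, 2 for GFP and 10 in all, and the control cells had the same vector and selection. The peaks were called once on the merged reads of all libraries, and the list holds no strand and no value for a library, so the knockdowns could not be compared and every value below is for the pooled cells, with no replicate and no test.

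At an imprinted gene the copy from 1 parent is expressed and the other is silenced, through methylation set in the germ line. Such genes sit in clusters, often a growth-related protein-coding gene beside a noncoding RNA expressed from the opposite parental copy, as with IGF2 and H19 or DLK1 and MEG3. Many are active in the embryo and in neural and endocrine tissue, and DLK1 is known as a marker of chromaffin and neuroblastoma cells. The 3′ end of a polyadenylated RNA is usually cut shortly downstream of a hexamer, AATAAA or its commonest variant ATTAAA, called the core signal here. The list has no information on which parental copy an RNA came from.

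The value given for a peak is its summit pileup, the number of distinct read positions that overlap the summit over all 10 libraries. MACS2 keeps 1 read per position and strand, so the pileup levels off at strong sites and is a rough measure of level. It ranged from 3 to 200 over all peaks, with a median of 9, and the whole list corresponds to about 5.79e+06 distinct reads. Intervals for pileups are exact Poisson intervals and those for shares are Wilson intervals, at 95%, and both cover counting error only. The reads mark transcript ends, so values were not divided by gene length. Each peak was read on its member's strand, and the border of the peak on the downstream side is called its 3′ edge.

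The sites that most directly show where these RNAs end are the 9 peaks whose 3′ edge fell within 10 bp of an annotated transcript end. They belonged to 8 of the 10 genes, every member except MEST and NDN. Several of their summits, at MEG3, IGF2, PEG3 and SNRPN, also lay in other genes, as given under each gene. Of the 9 peaks, 6 had a core signal, which began 16 to 37 bp upstream of the edge, with a median of 24.5 bp. The windows below run 5′ to 3′ on the strand of the gene in GRCh38, with the core signal in capitals.
H19 peak 2: tcAATAAAcactgttacagcaatttgtctc
CDKN1C peak 2: taAATAAAgaggccgaaaaatgctgcaact
PEG3 peak 4: aaAATAAAtatttctcagtctcttttgtct
PEG10 peak 5: tcAATAAAgatttagtggttaagtgcaaac
MEG3 peak 13: tcAATAAAtgtgtttcctgtcttaacaaaa
IGF2 peak 3: gcATTAAAagtcatgatcttctgagtgttc
They lie at chr11:1995168-1995197 (minus strand), chr11:2883216-2883245 (minus), chr19:56810060-56810089 (minus), chr7:94669667-94669696 (plus), chr14:100860996-100861025 (plus) and chr11:2129103-2129132 (minus), in that order. Of these 6 windows, the one of IGF2 holds ATTAAA and the others AATAAA.

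The other 3 peaks at annotated ends had no core signal within 50 bp, and the next windows show the variant hexamer nearest upstream of each, in capitals.
SNRPN peak 11: agGATAAAaaggttttctgctatctaactt
MEG3 peak 12: agAGTAAAtatttgtttgattgatgagtga
DLK1 peak 1: ttTATAAAtttcctgtgggtaccgaatgcc
These lie at chr15:24978697-24978726, chr14:100857599-100857628 and chr14:100729209-100729238, all on the plus strand. At SNRPN, other annotated ends inside the same peak follow an ATTAAA, in caATTAAActgtgaggtactgttgtatata at chr15:24978570-24978599. None of the 9 peaks at annotated ends had 7 or more A among the 10 genomic bases downstream (0 of 9, with a Wilson upper limit of 29.9%). The same shares over all peaks at annotated ends were not computed. Neither the core signals nor the few A are therefore shown to be particular to these genes. Over all peaks in genes of 1 strand, 8.65% had the 3′ edge within 10 bp of an annotated end, against 20% (10.9 to 33.8) of the members' 45 peaks.

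The summits were then placed, in order, near an annotated transcript end (terminal, from 200 bp before it to 600 bp after it), in an exon, or in an intron. For the members 20 of 45 were terminal (44.4%, 30.9 to 58.8), 12 exonic (26.7%, 16 to 41) and 13 intronic (28.9%, 17.7 to 43.4). Over the 145734 peaks with a strand, 19% were terminal, 10.2% exonic and 70.8% intronic. With all annotated transcripts, the members' list thus held a lower share of intronic peaks and a higher share of terminal peaks than the list as a whole. With 1 transcript per gene the members' intronic share was 51.9% (34 to 69.3), and the share over all peaks was not recomputed. The classes were unevenly spread among the genes, since MEG3 held 9 of the 12 exonic peaks and SNRPN 9 of the 13 intronic ones. The median pileup was 21 for the terminal peaks (7 to 44), 26 for the exonic peaks (5 to 44) and 10 for the intronic peaks (3 to 20), against 14, 13 and 8 over all peaks with a strand.

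**Figure D1:**
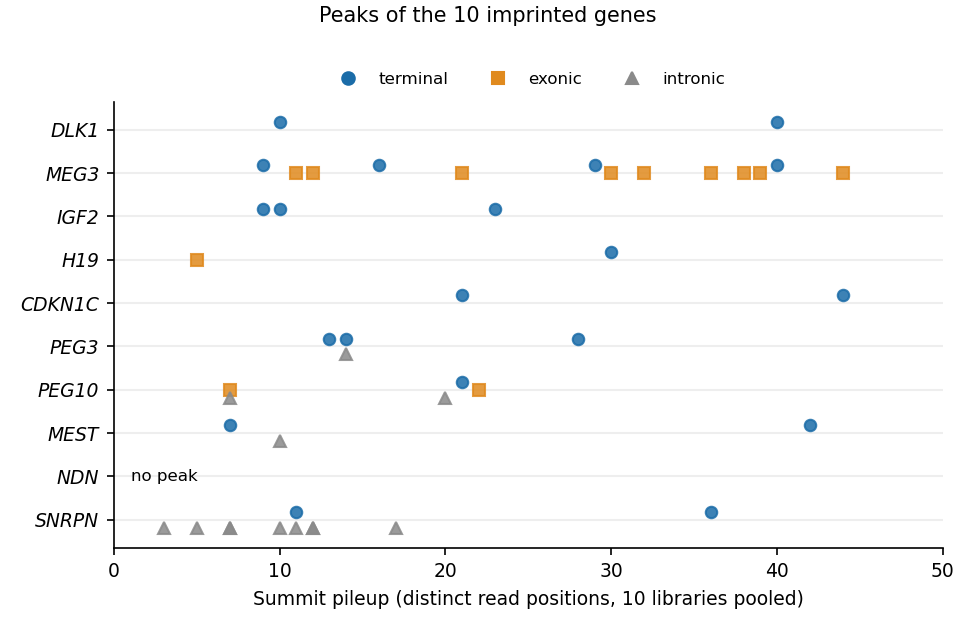
Summit pileup (x axis, distinct read positions over the 10 pooled libraries) of each of the 45 peaks, by gene and by class, where each symbol is 1 peak and equal values of a class overlie each other. The strongest peaks of 9 genes lie between 22 and 44, the exonic peaks are mostly those of MEG3, the intronic peaks mostly those of SNRPN, and NDN has no peak.

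All 9 members with a terminal peak had a strongest one of at least 20, where 51.8% of the 17683 genes with a terminal peak reached that pileup. Their median was 36.0 (21 to 44), against 20 over all such genes. The order was CDKN1C at 44, MEST at 42, DLK1 and MEG3 both at 40, SNRPN at 36, H19 at 30, PEG3 at 28, IGF2 at 23 and PEG10 at 21. Neighbours in this order could not be told apart by counting error, since the interval for CDKN1C (32.0 to 59.1) overlapped all those down to IGF2 (14.6 to 34.5) and touched that of PEG10 (13.0 to 32.1). Among all genes with a terminal peak the values stood between the percentiles 51.0 for PEG10 and 91.7 for CDKN1C, with a median of 83.5. The counting intervals for PEG10 (25.8 to 79.2), IGF2 (32.4 to 82.3) and PEG3 (45.1 to 89) reached below the middle of all genes. The order depended on the measure. With 1 transcript per gene, MEST, DLK1, MEG3 and PEG10 had no terminal peak, and CDKN1C stood at the percentile 57.3. By the deposited fold DLK1 stood at 98.5, IGF2 at 86.1, H19 at 95.3 and PEG10 at 46.4. By the sum of a gene's terminal pileups MEST stood at 73.1 and PEG10 at 37.6. By gene type, 7 of the 8 protein-coding members had a terminal peak, where 68.7% of all protein-coding genes did, and both lncRNA members (2 of 2) did, where 20.8% of lncRNA genes did.

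**Figure D2:**
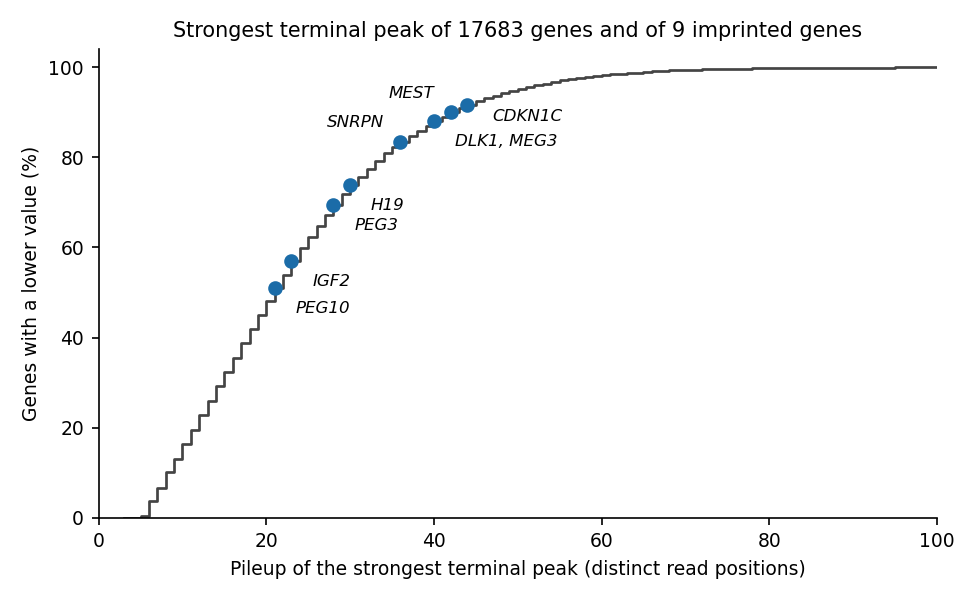
Share of the 17683 genes with a terminal peak that have a lower value (y axis, percent) against the pileup of the strongest terminal peak (x axis, distinct read positions), with the 9 imprinted genes that hold one as blue points on the curve. The points run from PEG10 at 21, near the middle of the curve, to CDKN1C at 44.

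The regulators of growth are described first. CDKN1C, which encodes an inhibitor of cyclin-dependent kinases, lies at chr11:2883213-2885775 on the minus strand and had 2 peaks, both in the 3′ UTR of its last exon. The stronger one had a pileup of 44, a deposited fold enrichment of 23.44 and an AATAAA 33 bp upstream of its 3′ edge. This edge was 40 bp past an annotated end. The more distal peak had a pileup of 21 (13.0 to 32.1), with its edge 2 bp past the end of the canonical transcript and an AATAAA 27 bp upstream. All 7 annotated transcripts of CDKN1C ended in one of these peaks, so this short gene showed a pair of peaks in 1 UTR. An AATAAA lay upstream of each 3′ edge, but that of the proximal peak lay past the annotated ends in this peak. These ends, at 2883616, 2883632 and 2883675, had no core signal within 50 bp upstream. Of the 10 bases after them, 7, 9 and 5 were A. In the 100 bp upstream of the proximal edge, 57% of the bases were A. The proximal signal stands in aaAATAAAaaaaccatgtatatttgtacaa at chr11:2883582-2883611 (minus strand).

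IGF2, the fetal growth factor, lies at chr11:2129112-2158391 on the minus strand and had 3 peaks, all terminal. On the same strand, the summit of the distal peak also lay in ENSG00000240801. Those of the other 2 lay in INS-IGF2 and ENSG00000284779, so the 3 peaks cannot be given to IGF2 alone. The distal peak, at the annotated end shown above, had a pileup of 23 (14.6 to 34.5) and a fold enrichment of 16.55. The other 2 had pileups of 10 and 9, and neither had a core signal within 50 bp of its edge on the IGF2 strand. The peak at 10 lay in the 3′ UTR of exon 4 of 4, and all 10 genomic bases downstream of its edge were A, as the capitals show.
IGF2 peak 2: ccaaaaaaaatcaattggctAAAAAAAAAA
This window is chr11:2132548-2132577 (minus strand). Inside the same peak, annotated IGF2 ends at 2132640 and 2132673 follow an ATTAAA that begins 45 and 12 bp upstream of them. Oligo(dT) priming, which starts these libraries, can also occur at such a run of A inside an RNA, and whether it did at this peak was not tested.

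The weakest IGF2 peak, with a pileup of 9, lay where IGF2 overlaps IGF2-AS, a noncoding RNA of the other strand at chr11:2140501-2148666. Read on the plus strand, the border of this peak was 15 bp past the annotated end of IGF2-AS and had an AATAAA 35 bp upstream, in taAATAAAatctctgcgccagaatctcggg at chr11:2148644-2148673. Read on the minus strand its edge was 371 bp past the nearest IGF2 end, with AAGAAA as the nearest hexamer. The list has no strand, so the peak could belong to a gene of either strand.

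H19, the noncoding RNA expressed from the maternal copy, lies at chr11:1995166-2004552 on the minus strand and had 2 peaks. Its terminal peak had a pileup of 30 (20.2 to 42.8) and a fold enrichment of 20.39, and the 3′ edge lay 8 bp past the annotated end. Of 31 annotated H19 transcripts, 30 ended in this peak. The other peak, in exon 3 of 5, had a pileup of 5 (1.62 to 11.7), no hexamer and 2 A downstream, and lay 576 bp downstream of the MIR675 hairpin. The RNA thus showed 1 strong end at the annotated position, above the interval of its internal peak.

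On chromosome 14, DLK1 encodes a transmembrane protein related to the Notch ligands and lies at chr14:100725705-100738224 on the plus strand. Its 2 peaks had pileups of 40 (28.6 to 54.5) and 10 (4.79 to 18.4). The stronger one lay in the 3′ UTR in exon 5 of 5, with a fold enrichment of 23.84, and the edge was 49 bp past the end of a shorter annotated transcript. It had no core signal within 50 bp but an AATGAA 10 bp upstream, and 7 of the 10 bases downstream were A, shown here in capitals with the rest of that window.
DLK1 peak 2: ctaaactcaaatgaaatttcAAAAAAGACC
The window is chr14:100735157-100735186. The canonical transcript ends further downstream, at 100738224, after an AATAAA in aaAATAAAcaacaagggctagacttgtgtc (chr14:100738203-100738232), and no peak lay there. The weaker peak lay in intron 3 of 4 of the canonical transcript, 8 bp past the end of a short annotated transcript. DLK1 was therefore a member whose main peak sat at neither the canonical end nor a core signal.

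MEG3, the noncoding RNA of the same cluster expressed from the maternal copy, spans 81.62 kb at chr14:100779410-100861031 and had 13 peaks, 4 terminal and 9 exonic. All of them lay downstream of the canonical transcript, which ends at 100829185, in exons and ends of the longer transcripts. The last one, peak 13 at the far end of the gene, had a pileup of 29 (19.4 to 41.6), a fold enrichment of 15.62 and its edge 1 bp from an annotated end. The summits of peaks 11, 12 and 13 also lay in MIR493HG on the same strand and in ENSG00000258663 on the other. These peaks therefore cannot be given to MEG3 alone. An exonic peak 52.614 kb from the gene start had a pileup of 39 (27.7 to 53.3) and a fold enrichment of 19.32, the highest fold of the gene. It had an ATTAAA 12 bp upstream of its edge and 7 A downstream, in atATTAAAagccaccaaaaacacatccaaa at chr14:100832146-100832175.

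A further 7 MEG3 peaks stood close together between 100846343 and 100849776. They were picked by a local background above 5, which is the reads expected at the summit from the region around it. A higher background than at the members' other peaks therefore follows from this choice, and it lowers the fold at a given pileup. The local background of these 7 was 5.88 to 6.33 with a median of 5.99. It was 0.214 to 1.67 with a median of 0.91 for the members' other peaks, and only 0.221% of all peaks (394 of 178392) had a background above 5. Their pileups were high, from 21 to 44, but their fold enrichments were 3.20 to 6.54. The A content of the 100 bp upstream was 34% to 41%, and 5 to 7 of the 10 bases downstream were A. The highest of them had a pileup of 44, an AATAAA 17 bp upstream and 6 A downstream, in tgAATAAAcaagtaaataggtaaagaagta at chr14:100846641-100846670. The strongest terminal peak of MEG3, with a pileup of 40 (28.6 to 54.5), was one of these 7. It had a fold enrichment of 5.87, its edge was 188 bp past an annotated end, and an AATAAA lay 40 bp upstream. Their summits also lay in MIR493HG, on the same strand, and in ENSG00000258663, on the other, where no core signal and at most 3 A were found at the opposite border.

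PEG3 encodes a zinc finger protein expressed from the paternal copy and lies at chr19:56810077-56840728 on the minus strand. It had 4 peaks, 3 terminal ones in the 3′ UTR of exon 10 of 10 and 1 in intron 2 of 9. The distal terminal peak had a pileup of 28 (18.6 to 40.5) and a fold enrichment of 15.59, with its edge 6 bp past the annotated end and no A among the 10 bases downstream. The other terminal peaks, at 14 and 13, had no core signal. The intronic peak also had a pileup of 14 (7.65 to 23.5) and a fold enrichment of 10, with an AATAAA 15 bp upstream and 7 A downstream, in aaAATAAAaacaaaaaacaaaaggagaata at chr19:56827980-56828009. All 4 lay within the body of ZIM2, which shares the strand, and the 3 terminal ones also within ENSG00000286125 on the other strand.

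PEG10, a gene derived from a retrotransposon, lies at chr7:94656325-94669695 on the plus strand and had 5 peaks with pileups of 7, 7, 20, 22 and 21 from the gene start to the end. The summit of the first peak also lay in SGCE, on the other strand, so the strand it came from is unknown. The terminal peak, at 21 (13.0 to 32.1) with a fold enrichment of 10, ended 1 bp before an annotated end. The exonic peak upstream of it, at 22 (13.8 to 33.3), had no hexamer and 6 A downstream. The canonical transcript ends at 94665698, and no terminal peak lay there. A peak in intron 1 of 2 reached 20 (12.2 to 30.9), the highest intronic pileup among the members, with a fold enrichment of 12.57, and had no hexamer and 9 A downstream.
PEG10 peak 3: ataagcgggttttgaaaacaAAAAAAAGAA
The capitals mark the 10 bases downstream of the edge, at chr7:94663336-94663365. The intervals of the 3 peaks near 20 overlapped, so the intronic and the terminal signal could not be ranked.

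MEST encodes a protein of the hydrolase fold and lies at chr7:130486171-130506465 on the plus strand. Its strongest peak had a pileup of 42 (30.3 to 56.8) and a fold enrichment of 18.38, but it was 464 bp wide and covered the place where MEST meets COPG2, which is on the other strand. The 2 gene bodies overlap by 228 bp, the left border of the peak was 69 bp past the COPG2 end and the right border 167 bp past the MEST end. Inside it, annotated MEST ends at 130506288, 130506292 and 130506296 follow an AATAAA, in ttAATAAAaatgaattgtgacaaaagtgga at chr7:130506268-130506297. No core signal lay within 50 bp of the left border on the COPG2 strand. The pileup of this peak could not be divided between the 2 genes. The 2 other MEST peaks were weak, at 10 (4.79 to 18.4) with a fold enrichment of 7.97 in intron 2 of 11 and 7 (2.81 to 14.4) near a short transcript end.

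The intronic MEST peak ended 131 bp upstream of the MIR335 hairpin, which MEST hosts. It had no core signal and 5 A downstream on the MEST strand. On the other strand its border was 1 bp past the annotated end of ENSG00000270823, and all 10 bases beyond were A. As for the peak shared with COPG2, the strand it came from is unknown.

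SNRPN, which encodes a spliceosomal Sm protein and shares its transcripts with SNURF, spans 155.1 kb at chr15:24823637-24978723 on the plus strand. It had 11 peaks, 2 terminal and 9 intronic. Peaks 1 and 2, counted from the gene start, lay upstream of the canonical transcript, in ENSG00000286110 on the same strand. Peak 2 also lay in RPL5P1, a pseudogene on the other strand. The rest lay in ENSG00000214265, and all of these but peak 11 also in SNURF, on the same strand. The terminal peak at the gene end had a pileup of 36 (25.2 to 49.8) and a fold enrichment of 14.68, with its edge 4 bp before the annotated end. Each of the 9 intronic peaks was lower, from 3 to 17, and all of these values lay below the interval of the terminal peak. The interval of the strongest of them overlapped that of the terminal peak, so that peak and the terminal one could not be ranked. The strongest intronic one, in intron 3 of 9, had a pileup of 17 (9.9 to 27.2), a fold enrichment of 7.004, an AATAAA 22 bp upstream and 3 A downstream, in gtAATAAAaatattattcataatttttcaa at chr15:24968800-24968829. A weaker one in intron 1, at 7 (2.81 to 14.4), had an AATAAA 30 bp upstream and 2 A downstream.

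Of the 9 intronic SNRPN peaks, 4 had at least 7 A downstream, and these same 4 held the motif ACTCNAGNC within 60 bp upstream on the gene's strand, where N is any base. The motif was searched because its letters occur at the 3′ end of Alu elements, which close with a run of A. Over all intronic peaks with a strand 16.2% held it, against 4 of 13 intronic peaks of the members (30.8%, 12.7 to 57.6). This interval included the share over all intronic peaks. The share over intronic peaks with at least 7 A downstream was not computed. The window below shows 1 of the 4 peaks, in intron 2, with the 10 bases downstream of the edge in capitals.
SNRPN peak 7: cagaatgagaccctgtctggAAAAAAAAAA
It lies at chr15:24967789-24967818, and the peak had a pileup of 12 (6.2 to 21). The intronic peaks of this gene were therefore of different kinds by sequence, some with a core signal and few A, others with no core signal before A-rich sequence and the rest with neither.

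**Figure D3:**
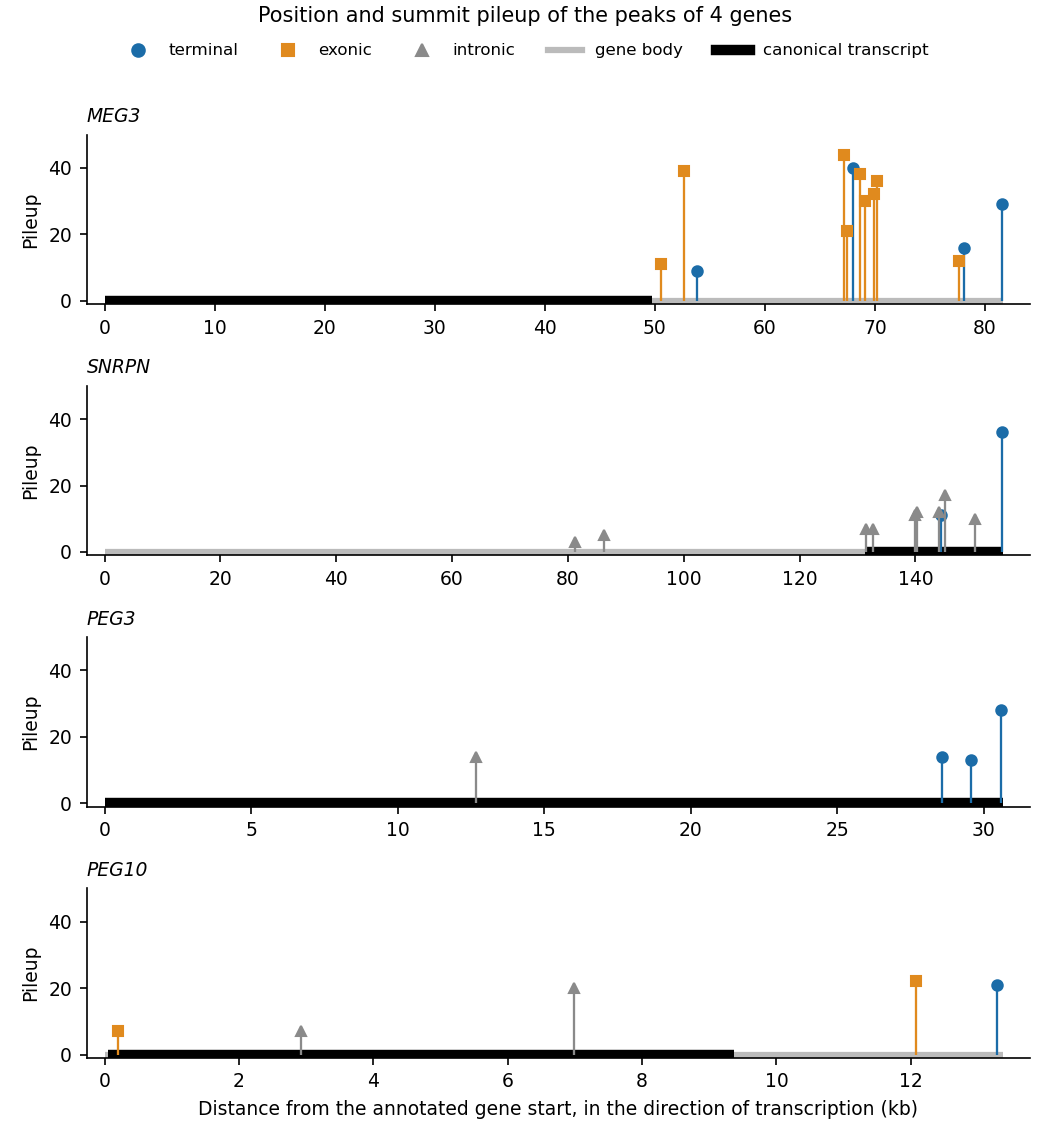
Summit pileup (y axis, distinct read positions) of each peak of MEG3, SNRPN, PEG3 and PEG10 against its distance from the annotated gene start in the direction of transcription (x axis, kb), with the gene body in grey, the canonical transcript in black and each vertical line 1 peak in the colour of its class. The peaks of MEG3 all lie past the canonical transcript, SNRPN rises from intronic peaks of at most 17 to the terminal peak at 36, and PEG10 has an intronic peak at 20 beside the terminal one at 21.

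NDN, which encodes a protein of the MAGE family and lies in the same imprinted region as SNRPN, at chr15:23685400-23687305 on the minus strand, was the member with no peak. The nearest summit past its 3′ end was 69107 bp away with a pileup of 7, and the nearest before its start was 416682 bp away with a pileup of 5. Its annotated end does follow a core signal.
NDN annotated end: ggAATAAAaaacaaaaataatttccttccc
The window is chr15:23685390-23685419 (minus strand), with the core signal in capitals. The smallest pileup called anywhere in the list was 3, so NDN was not detected at this depth, which does not show that its RNA is absent. Of its neighbours on the list of imprinted genes, MAGEL2 and NPAP1 also had no peak, while MKRN3 had 1 peak, which was not terminal.

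The sequence around the 3′ edges was compared over all the members' peaks. The 12 hexamers of the study (AAGAAA or AATAAA or AATACA or AATAGA or AATATA or AATGAA or ACTAAA or AGTAAA or ATTAAA or CATAAA or GATAAA or TATAAA) were searched on the member's strand. Any of them lay within 100 bp upstream of 28 of 45 edges (62.2%, 47.6 to 74.9), against 56.4% of all peaks with a strand. A core signal lay within 50 bp upstream of 15 of 45 (33.3%, 21.4 to 47.9), against 25%. Both intervals included the share over all peaks. At least 7 A among the 10 bases downstream were found at 12 of 45 (26.7%, 16 to 41), against 57.9%, which lay above the interval for the members. Within the classes, 7 of the 13 intronic peaks were A-rich (53.8%, 29.1 to 76.8), against 70.3% of all intronic peaks, and 9 of the 20 terminal peaks had a core signal (45%, 25.8 to 65.8), against 52.8% of all terminal peaks. Both of these intervals included the share over all peaks, and the members' list held fewer intronic peaks.

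**Figure D4:**
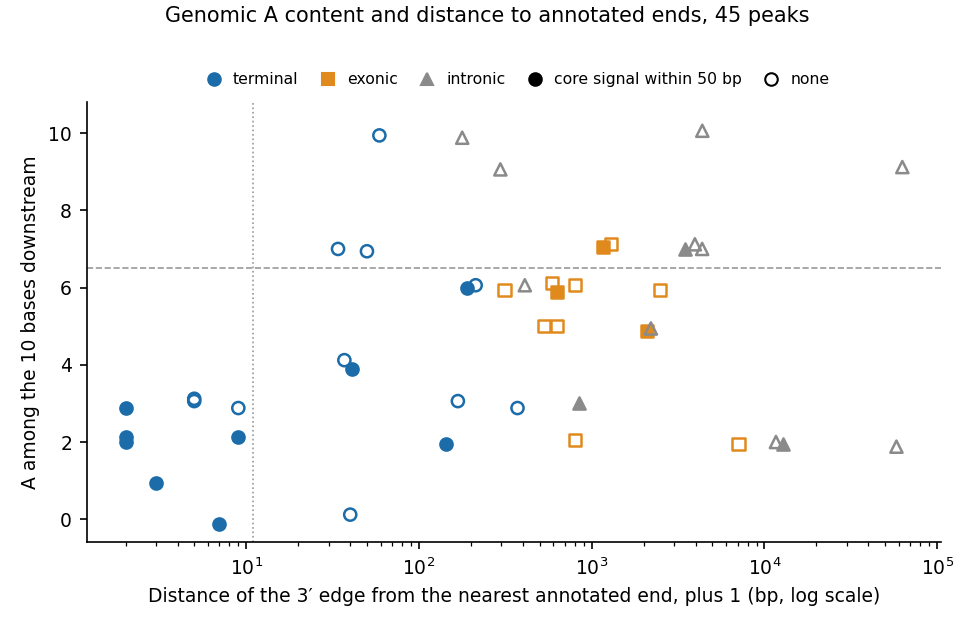
Number of A among the 10 genomic bases downstream (y axis) against the distance of the 3′ edge from the nearest annotated end plus 1 bp (x axis, bp, log scale) for the 45 peaks, coloured by class and filled where a core signal lies within 50 bp upstream, with small vertical offsets so that points do not hide each other. The 9 peaks left of the dotted line, within 10 bp of an annotated end, have at most 3 A, while the 12 peaks above the dashed line, with at least 7 A, are all farther away.

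The same was asked from the side of the annotation. The 10 genes have 106 annotated transcript ends, of which 53 lay in a peak or within 10 bp of one (50%), against 25.5% of the ends of all protein-coding and lncRNA genes. A core signal lay within 50 bp upstream of 30 of the 53 ends in a peak (56.6%), against 60.6% of all ends in a peak. It lay upstream of 3 of the 53 ends outside the peaks (5.66%), against 24.1% of all ends outside. The shares over all ends cover 38899 genes, of which 17683 had a terminal peak, while 9 of the 10 members had one. They are therefore not from like sets of genes, and shares over genes with a terminal peak alone were not computed. Without MEG3, which has 36 of the ends, the counts were 20 of 36 in a peak (55.6%) and 3 of 34 outside (8.82%). Neighbouring ends often follow the same hexamer, so these counts are not of independent sites. The 3 ends with a core signal and no peak were the canonical end of DLK1, an IGF2 end at 2132500 and the end of NDN. By transcript, 102 of 160 ended in a peak, of which 30 were of H19 and 29 of MEG3. The share over all annotated transcripts was not computed.

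The neighbours and other imprinted genes were read from a list of 42 names, of which 40 were found in GENCODE 44. A terminal peak was held by 28 of the 40 (70%), where 68.7% of all protein-coding and 20.8% of all lncRNA genes held one. The median strongest pileup was 21 (5 to 87), against 20 over all genes with a terminal peak. No peak was held by 7 of the 40. The strongest were GNAS at 87, which encodes a G protein subunit, and NNAT at 78, which encodes a membrane proteolipid, followed by UBE3A at 52, a ubiquitin ligase, and SNHG14 at 50, the long noncoding RNA downstream of SNRPN. COPG2 followed at 42, which is the peak it shares with MEST. The members' own strongest values, up to 44, thus lay within the range of this list and below its first 4. Within the clusters, the neighbours of IGF2, H19 and CDKN1C were low, at 9 to 14 in the 3 of 7 with a terminal peak, the 9 being the peak that IGF2-AS shares with IGF2, while those of PEG10 had 33 for SGCE and 23 for PPP1R9A.

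The cell line was checked with marker lists. All 13 markers of adrenergic neuroblastoma had a terminal peak, with a median of 48 (16 to 114), PHOX2A at 114 and MYCN at 73 among them. None of 5 blood markers had one, 1 of 3 endothelial markers did at 8, 1 of 3 epithelial markers at 13, and 4 of 7 mesenchymal or fibroblast markers did at 8 to 16. The 9 members with a terminal peak, at 21 to 44, stood above all of those other-lineage values. Over all genes with a terminal peak 51.8% reached 20, and the strongest peaks of the other imprinted genes went down to 5.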

How the data were processed

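Per the labels and the study's methods, 10 QuantSeq REV libraries of IMR-32 cells were sequenced, and the authors trimmed the reads, mapped them to GRCh38 with STAR 2.5.1b, downsampled the knockdown libraries, which came from different batches, merged all reads and called peaks with MACS2 2.1.1 at a read extension of 100 bp. Each deposited fold is a ratio of the summit pileup to the background around it, with 1 added to both, and the p-values and q-values that the authors deposited are on the −log10 scale. Strand and depth per library are not in the list, and the coverage tracks were not analysed here. The study's methods next removed peaks with no hexamer upstream and a 25-base stretch of A, with up to 3 mismatches, downstream. Read at its 3′ edge, SNRPN peak 7 meets this rule, yet it is in the list used and was kept.

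The fold and p-value of each summit were solved for its pileup and background, with a largest miss of 0.000168 on the −log10 scale. Peaks were annotated with all GENCODE 44 transcripts, and peaks in genes of 1 strand (145734) served for comparison, although 18 of the members' 45 summits also lay in a gene of the other strand. Sequences were read from GRCh38. The sequence of 1 further peak is not reported here. Where several hexamers were present, the one nearest the edge was taken. The core signal was also searched on its own. The members and lists were chosen with earlier results of these data known. Values are given in full for the strongest terminal and the strongest intronic peak of each member, and from the list of other imprinted genes the 5 strongest are named, and further peaks and neighbours were named after their values were seen. Shares have Wilson and pileups exact Poisson intervals, and no test between groups was possible. Alternatives changed the q-value threshold, peak position, reach, terminal window, transcripts, merging, strand overlap, hexamers and A limit. The steps were tested on simulated data. Python 3.11.15, numpy 2.4.6, scipy 1.17.1, pandas 2.3.3, pysam 0.24.0, samtools 1.23.1 and matplotlib 3.10.9 were used.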

Additional observations from a re-analysis of the deposited data

How the results depend on the processing

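No paired analysis was possible because reads were merged over libraries before peaks were called, and for this reason no replicate could be left out. The 45 peaks became 11 at a −log10 q of at least 20, 27 with 1 transcript per gene and 27 without peaks that overlap genes of the other strand, all by construction fewer. The intronic share of 28.9% became 9.09% at a −log10 q of at least 20 and 51.9% with 1 transcript per gene. The share with any of 12 hexamers, 62.2%, became 81.8% at that q-value, 35.6% with AATAAA and ATTAAA alone and 33.3% when counted from the summit. The A-rich share of 26.7% became 44.4% at 6 A of 10, 11.1% at 8 A of 10 and 4.44% for a stretch of 25 bases with at most 3 other than A. For these settings the matching shares over all peaks were not computed. Members with a terminal peak fell from 9 to 5 with 1 transcript per gene, which left IGF2, H19, CDKN1C, PEG3 and SNRPN. The other 23 alternatives of these results moved them by less than their interval or 1.5 times, among them the shares without MEG3 and SNRPN, a setting chosen after seeing the data, at 19% intronic, 57.1% with a hexamer and 28.6% A-rich. Of 32 alternatives for the percentile of a single gene, 5 moved it beyond its interval: CDKN1C to 57.3 with 1 transcript per gene, MEST to 73.1 by the sum of its terminal peaks, and DLK1 to 98.5, IGF2 to 86.1 and H19 to 95.3 by the deposited fold. The cause of the moved shares and percentiles was not tested. Low pileups limit the weak peaks most, since a pileup of 3 has an interval of 0.619 to 8.77.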
